A study of Mus musculus with 4 samples.

Results

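The genes described here build and guard the protein-folding machinery of the endoplasmic reticulum (ER). They are 38 genes chosen by function: 9 luminal chaperones and their helpers, 5 enzymes of oxidative folding, 11 genes of ER-associated degradation, 3 stress sensors with the transcription factor Xbp1, and 9 genes of the translocation channel and its partners. All 38 were found on the array among 22222 named genes, each taken at its brightest probe set. Their expression was followed in dendritic cells grown from the bone marrow of C57Bl/6 mice with the cytokine GM-CSF. The cells were kept for 16 h in 1 of 4 conditions, which were media or poly I:C (10 µg/ml), each in normoxia or in hypoxia. The labels give hypoxia as 0.5% without naming the gas, and poly I:C stands in for viral double-stranded RNA. Total RNA (200 ng) from each condition was hybridised to a single Affymetrix Mouse Gene ST 1.0 array, so no difference below has a replicate error, a test or a p-value. Age and sex of the animals, and any pooling of them, are not stated in the labels.

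Secreted and membrane proteins enter the ER through the Sec61 channel, fold with the help of chaperones and disulfide-forming enzymes, and leave for the Golgi; molecules that fail are drawn back to the cytosol and degraded. When unfolded proteins build up, the sensors PERK (Eif2ak3), IRE1 (Ern1) and ATF6 start the unfolded protein response: PERK slows translation and raises ATF4, IRE1 splices Xbp1 mRNA, and cleaved ATF6 with spliced XBP1 activates chaperone and degradation genes through short promoter sequences called ER stress elements. In dendritic cells the IRE1 and XBP1 arm is known for its part in survival and antigen presentation, and the oxidase gene Ero1l is a known target of hypoxia-inducible factor. The arrays used here do not separate the spliced from the unspliced form of Xbp1.

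The deposited values were linear RMA intensities whose median lay between 3.90 and 4.09 and whose maximum lay between 7225 and 8810 on the 4 arrays. Differences were taken as log2 ratios of intensities. A floor was set at a highest intensity of 64 over the 4 arrays, which 2714 of the named genes and 19 of the 38 genes reached. The ER gene just inside the floor was Hyou1, at 65.1 on its brightest array, and the one just outside was Derl1, at 63.7. Hyou1 and Sdf2l1 reached the floor on the normoxia media array alone, Herpud1 on the media arrays alone, and Dnajb11 and Ssr4 on the poly I:C arrays alone, so part of their difference follows from the floor. All 38 are therefore described, and values under the floor are marked as such.

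The promoters of several of these genes carry the ER stress element, which is shown first because it is the sequence through which the pathway is known to act on its targets. RefSeq promoter windows (GRCm38.p6, 250 bases before to 50 after the start site) were at hand for 32 of the 38 genes, with 33 windows in all. The element was searched on both strands in its standard form, CCAAT and CCACG with 9 bases between them (ERSE), and in its compact form, ATTGG and CCACG with 1 base between them (ERSE-II). ERSE was found in 8 of the 32 genes, or 25%, against 37 of the 27025 genes in the whole promoter table, or 0.137%. ERSE-II was found in another 2 of the 32, or 6.25%, against 12 genes in the table, or 0.0444%. Each match is printed below with 10 bases on either side, on the strand that carries the motif as spelled, with the fixed letters in capitals. The matches lie on chr15:88819510-88819548 (minus strand) for Creld2, chr10:75893232-75893270 (minus) for Derl3, chr14:118937817-118937855 (plus) for Dnajc3, chr13:12565672-12565710 (minus) for Ero1lb, chr10:86705628-86705666 (minus) and chr10:86705523-86705561 (plus) for the pair in Hsp90b1, chr2:34772015-34772053 (plus) for Hspa5, chr12:17266481-17266519 (plus) for Pdia6, chr19:6046522-6046560 (plus) for Syvn1, chr16:22857842-22857872 (plus) for Dnajb11 and chr8:94386367-94386397 (plus) for Herpud1.
Hspa5, ERSE: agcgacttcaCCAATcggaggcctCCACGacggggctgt
Hsp90b1, ERSE, distal: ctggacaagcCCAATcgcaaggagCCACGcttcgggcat
Hsp90b1, ERSE, proximal: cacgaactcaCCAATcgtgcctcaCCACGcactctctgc
Pdia6, ERSE: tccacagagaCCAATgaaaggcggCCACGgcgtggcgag
Dnajc3, ERSE: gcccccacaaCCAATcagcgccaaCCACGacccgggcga
Creld2, ERSE: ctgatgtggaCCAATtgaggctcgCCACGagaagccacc
Syvn1, ERSE: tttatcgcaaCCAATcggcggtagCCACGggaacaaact
Derl3, ERSE: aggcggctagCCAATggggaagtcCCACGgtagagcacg
Ero1lb, ERSE: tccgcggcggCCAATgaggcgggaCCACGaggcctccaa
Dnajb11, ERSE-II: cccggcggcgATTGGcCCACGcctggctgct
Herpud1, ERSE-II: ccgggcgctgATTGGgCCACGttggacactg

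Ero1l, the gene with the widest range over the 4 arrays, had neither form of the element in its window. That window (chr14:45318523-45318822, minus strand) held 3 copies of the hypoxia core, the short motif ACGTG or GCGTG at the heart of sites bound by hypoxia-inducible factor, the nearer 2 of them beginning 88 and 63 bases before the start site. It is printed 5′ to 3′ in the direction of the gene with the cores in capitals, to be set beside the window of Hspa5 (chr2:34771840-34772139, plus strand), whose ERSE is in capitals from its first to its last base. The Hspa5 window holds 2 cores as well, left in lower case, and that of Pdia6, which had less signal in hypoxia, holds 3 like that of Ero1l.
Ero1l, hypoxia cores: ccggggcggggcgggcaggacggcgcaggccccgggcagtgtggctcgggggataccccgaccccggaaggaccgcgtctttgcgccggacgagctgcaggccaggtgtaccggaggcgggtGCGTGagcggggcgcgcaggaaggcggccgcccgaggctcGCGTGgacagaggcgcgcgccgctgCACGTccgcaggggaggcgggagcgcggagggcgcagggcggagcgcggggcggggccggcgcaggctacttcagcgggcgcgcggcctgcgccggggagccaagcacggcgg
Hspa5, ERSE in place: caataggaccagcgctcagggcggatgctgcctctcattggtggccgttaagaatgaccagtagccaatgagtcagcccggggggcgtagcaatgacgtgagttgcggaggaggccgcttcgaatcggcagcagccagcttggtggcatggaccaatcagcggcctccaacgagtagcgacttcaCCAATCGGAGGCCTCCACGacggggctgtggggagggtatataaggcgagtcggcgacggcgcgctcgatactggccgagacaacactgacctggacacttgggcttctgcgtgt
The core is short and common: it was present in 25 of the 32 genes (78.1%), 24 of them with a copy outside any ER stress element, and in 46.7% of all genes in the table. The ER gene windows were also richer in G and C, with a median of 63.3% against 52.7%. The ER stress elements overlap a core in Hsp90b1, Dnajb11 and Herpud1. Among other motifs searched on both strands, TGACGTGG (UPRE) was in none of the 32 and in 0.714% of the table, and TGATGCAA or TGATGAAA (ATF4 element) was in 1 of the 32, Herpud1, and in 2.16% of the table.

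Without poly I:C, 8 of the 9 luminal chaperone genes were lower in hypoxia than in normoxia. All 6 above the floor were lower, as were 58.4% of all genes above the floor. Of the 6 above the floor, 3 were lower by at least 2-fold, against 6.78% of all genes. Among these 3, Hyou1 and Sdf2l1 passed the floor on the normoxia media array alone. In all but Dnajc3 of the 6 the gap was less than 1.5-fold or had turned with poly I:C. The medians were -1.07 in media and -0.07 with poly I:C over the 6, and -0.93 and -0.10 over all 9. Hspa5, which encodes BiP, the main ER chaperone and the brake on the stress sensors, had an intensity of 402 in normoxia with media, 440.4 in normoxia with poly I:C, 168 in hypoxia with media and 373 in hypoxia with poly I:C. The hypoxia media array stood alone as the low one, 2.40-fold below normoxia media (log2 difference -1.26). With poly I:C the hypoxia difference of Hspa5 was -0.24.

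Hsp90b1, the ER member of the HSP90 family, had an intensity of 664 in normoxia with media, against 327 with poly I:C, 349 under hypoxia and 391 with both. Here the untreated array was the high one and the other 3 lay close together. Hypoxia differed from normoxia by -0.93 in media and by 0.26 with poly I:C, and poly I:C differed from media by -1.02 in normoxia and by 0.16 in hypoxia. Hyou1, a large HSP70-related chaperone that works with BiP as a nucleotide exchange factor, was likewise highest on the untreated array, with 65.1 there, 36.9 with poly I:C, 24.9 under hypoxia and 27.6 with both. Its hypoxia difference in media, -1.39, was the lowest of the 19 genes above the floor and ranked 84th from the bottom among the 2714. Hyou1 passed the floor on the untreated array alone, so part of this difference and of its rank follows from the floor.

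Sdf2l1, a component of the ER chaperone complex that helps keep unfolded proteins soluble, had intensities of 76.1 untreated, 44.7 with poly I:C, 32.6 under hypoxia and 54.3 with both. The hypoxia difference was -1.22 in media and 0.28 with poly I:C, which gave this gene the highest difference of differences of the 38 (1.5). Dnajb11, a J-domain partner of BiP, was lowest in hypoxia with media, at 40.1, and reached 63.6 untreated, 85.4 with poly I:C and 91.0 with both. Poly I:C therefore differed from media by 1.18 in hypoxia and by 0.43 in normoxia.

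Dnajc3, another J-domain partner of BiP that is also known as an inhibitor of PERK, differed from the rest of the chaperones. It had an intensity of 165 untreated, 101 in hypoxia, 87.2 with poly I:C and 55.5 with both, so that it was lower with each treatment and lowest with the pair. The hypoxia difference was alike without and with poly I:C (-0.70 and -0.65), and the array with both lay 1.57 below the untreated one on the log2 scale. Both of its probe sets held identical values. The other 3 chaperone genes were under the floor. Manf, a secreted ER stress-inducible factor, ranged from 21.5 untreated to 9.74 in hypoxia with media (-1.14), Creld2, an ER stress-inducible disulfide isomerase-like protein, from 20.1 to 13.4 on the same arrays (-0.58), and Dnajb9, a J-domain partner of BiP that restrains IRE1, stayed between 28 and 32.3 on all 4.

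**Figure D1:**
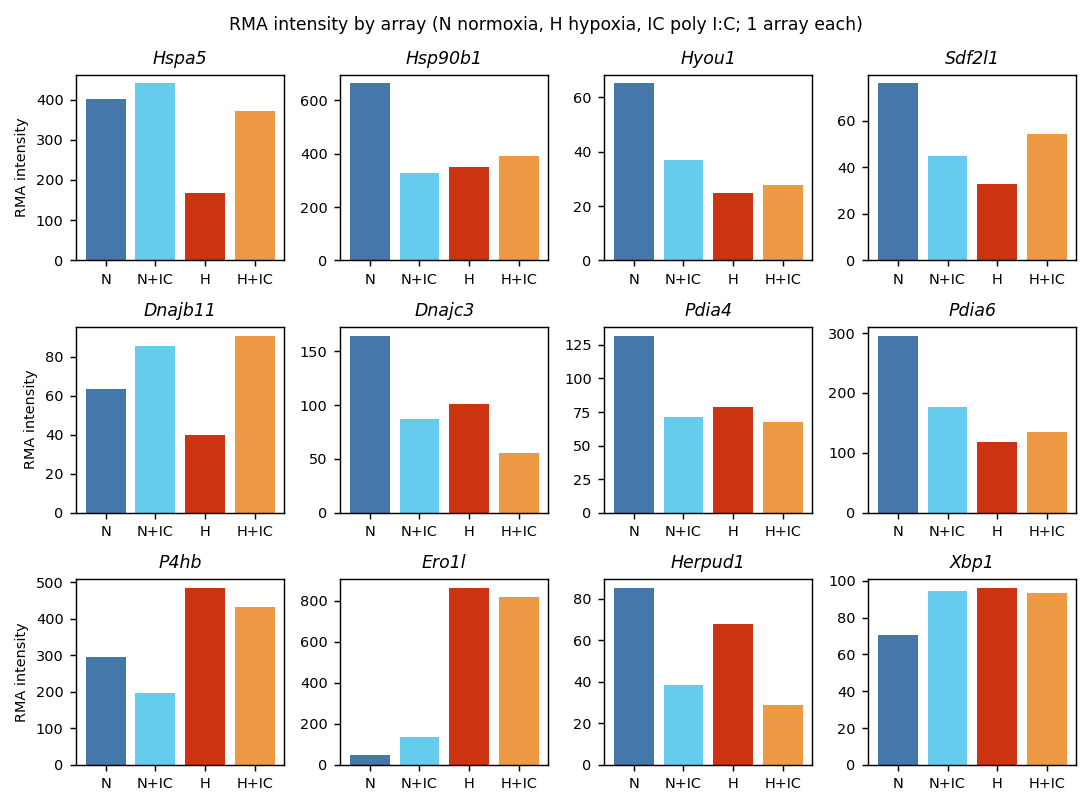
RMA intensity (linear, from 0) of 12 of the ER folding genes on each of the 4 arrays, 1 bar per array with no replicates: N is normoxia with media, H hypoxia with media, and IC marks poly I:C. Hspa5, Hyou1, Sdf2l1, Dnajb11 and Pdia6 have their lowest bar in hypoxia with media, while Ero1l goes from 47.8 to 863 between the media arrays.

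The enzymes of disulfide formation split. Pdia6, a protein disulfide isomerase that acts together with BiP, moved as the chaperones did, with an intensity of 296 untreated, 177 with poly I:C, 119 under hypoxia and 135 with both (hypoxia differences of -1.32 in media and -0.39 with poly I:C). Pdia4, a relative, was highest untreated at 132 and lay between 67.2 and 78.4 on the other 3 arrays. P4hb, the classical protein disulfide isomerase and the beta subunit of collagen prolyl hydroxylase, went the other way: it had an intensity of 295 untreated, 197 with poly I:C, 485 under hypoxia and 432 with both. Both hypoxia arrays thus exceeded both normoxia arrays, by 0.72 in media and by 1.13 with poly I:C.

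Ero1l, the oxidase that passes electrons from protein disulfide isomerase to oxygen, had the largest difference of any ER folding gene. Its intensity was 47.8 untreated, 133 with poly I:C, 863 under hypoxia and 820.2 with both. The 2 hypoxia arrays differed from each other by 0.07 on the log2 scale, while the 2 normoxia arrays differed by 1.48. Hypoxia gave 18.1-fold more signal in media (log2 difference 4.17) and 6.17-fold more with poly I:C (2.63), and these values ranked 8th and 10th from the top among the 2714 genes. The smaller ratio with poly I:C went with the higher normoxia value, and the poly I:C difference in hypoxia, -0.07, turned to 0.12 after cyclic loess scaling. Ero1lb, the related oxidase best known from the pancreas and the one of the pair with an ERSE in its window, stayed under the floor, between 21.3 and 29.8, with a hypoxia difference of 0.17 in media and -0.48 with poly I:C.

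The order of the arrays in Ero1l, from hypoxia with media down to hypoxia with poly I:C, normoxia with poly I:C and the untreated array, was also that of 4 genes known to be induced in hypoxia. The step between the hypoxia arrays was small in Ero1l and Vegfa, at -0.07 in each, and in Ero1l its sign turned after cyclic loess scaling. Vegfa, which encodes an angiogenic growth factor, had hypoxia differences of 2.97 in media and 1.44 with poly I:C, Slc2a1, a glucose transporter, of 2.54 and 0.97, Ndrg1 of 5.04 and 3.06, and Egln3, an oxygen-sensing prolyl hydroxylase, of 7.05 and 3.92. Each was also higher with poly I:C in normoxia, by 1.15 to 2.10, as was Ero1l at 1.48. P4hb was lower there, at -0.58.

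**Figure D2:**
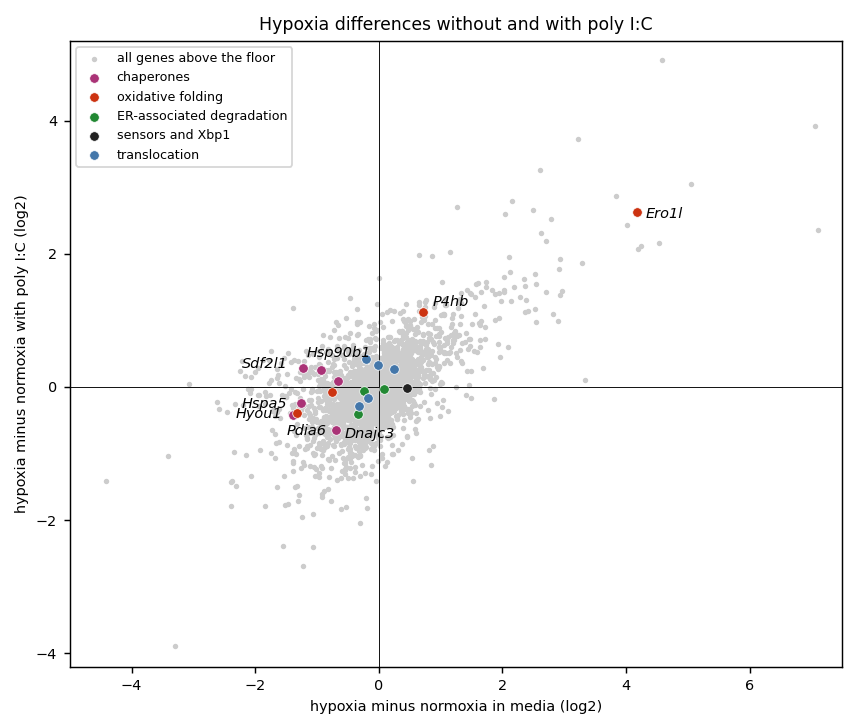
Log2 hypoxia minus normoxia difference in media (x axis) and with poly I:C (y axis) for all 2714 genes above the floor (grey) and the 19 ER folding genes among them (coloured by role); the axes share no array. Ero1l lies at 4.17 and 2.63, and 6 chaperones lie left of 0 on the x axis, between -1.39 and -0.67.

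Of the 3 ER-associated degradation genes above the floor, only Herpud1 was 2-fold apart in a comparison. Of all genes above the floor, 3.68% to 16.5% were in each direction of the 4 hypoxia and poly I:C comparisons. Herpud1, a membrane scaffold of the degradation complex and a well-known stress target, had an intensity of 85.4 untreated and 67.7 in hypoxia, but 38.5 with poly I:C and 28.9 with both. The 2 poly I:C arrays were the low ones in either setting, by -1.15 in normoxia and by -1.23 in hypoxia, and the array with both treatments lay 1.56 below the untreated one on the log2 scale. Its window holds ERSE-II and the ATF4 element. Sel1l, the adaptor of the HRD1 ubiquitin ligase, was likewise lower with poly I:C, at 85.3 and 82.0 against 127 and 108 in media, but by less than 2-fold (-0.58 and -0.40). Edem1, a lectin that selects misfolded glycoproteins, was the flattest of the 19, from 115 to 122.

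The remaining 8 degradation genes were under the floor. Syvn1, the HRD1 ligase itself, had intensities of 27.8, 28.4, 19.7 and 30.7 in the order untreated, poly I:C, hypoxia and both, so hypoxia with media was again the low array. The lectins Edem2 and Edem3 ranged from 40.2 to 51.4 and from 21.3 to 30.1, and the Derlin genes Derl1 and Derl2, parts of the exit channel, from 52.9 to 63.7 and from 47.6 to 55.7. Derl3 did not exceed 5.26. The selenoproteins Selk and Vimp lay between 13.1 and 18.9 and between 9.42 and 12.5, but these Selk values come from a probe set that the file ties to a GenBank clone, and the one tied to the RefSeq transcript did not exceed 2.46.

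The 3 sensors, none of which reached the floor, were all lower with poly I:C in either setting in the deposited values. For Atf6 the differences were -0.15 in normoxia and -0.62 in hypoxia. Of the 3, only Eif2ak3 was 2-fold apart in a comparison, that of poly I:C in normoxia. Eif2ak3, encoding PERK, had 26.7 untreated and 23.5 in hypoxia against 13.1 and 12.5 on the poly I:C arrays, differences of -1.03 and -0.91. Ern1, encoding IRE1, had 31.2 and 36.8 against 16.4 and 22.1, differences of -0.92 and -0.74. With 16 added to every intensity the poly I:C differences of Eif2ak3 became -0.55 and -0.47.

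Atf6 was 57.0 untreated, 56.8 in hypoxia and 51.2 with poly I:C, and was lowest with both, at 36.8. Xbp1 was the one gene of this group above the floor. It had its lowest intensity, 70.4, on the untreated array and 94.8, 96.3 and 93.7 with poly I:C, hypoxia and both. Either treatment alone therefore differed from the untreated array by 0.43 to 0.45, and adding the other changed it by -0.04 to -0.02, values whose sign turned with cyclic loess scaling (0.12 and 0.03).

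Of the translocation genes, none of the 5 above the floor was 2-fold apart in any comparison. Of all genes above the floor, 3.68% to 16.5% were in each direction of the 4 hypoxia and poly I:C comparisons, so little is read from this count. Sec61a1, the pore of the channel, had intensities from 126 to 160.4, and Ssr3, a subunit of the translocon-associated protein complex, from 113 to 153. Among the other subunits of that complex Ssr1 was lowest with poly I:C in normoxia, at 83.3 against 110 to 126, while Ssr2 was higher with poly I:C in either setting, at 107 and 88.3 against 84.1 and 67.2.

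Ssr4 was highest with both treatments, at 80.6, and between 60.1 and 64.2 elsewhere. Under the floor, Sec61g, the small gamma subunit, was higher in hypoxia in either setting (35.0 and 26.1 against 21.7 and 15.7), and Sec61b stayed between 10.6 and 14.1. Sec62 and Sec63, which assist entry after translation, were highest untreated at 51.3 and 56.6 and lowest with poly I:C in normoxia, at 36.5 and 32. The difference of differences was above 0 in all 9, from 0.01 to 0.62, but in 8 of 9 after centring, cyclic loess or the pseudocount. It was above 0 in 51.4% of all genes above the floor, where only 5 of the 9 lie.

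**Figure D3:**
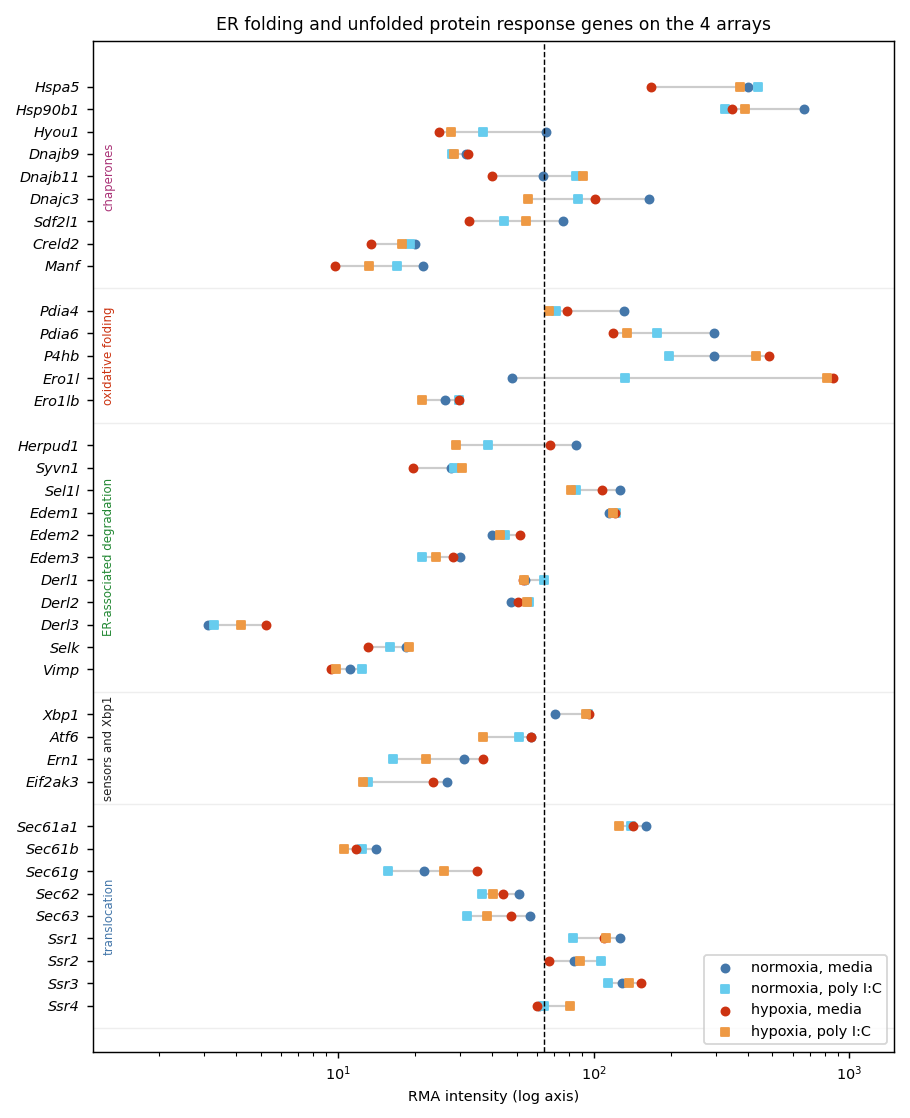
RMA intensity (log axis) of all 38 ER folding and unfolded protein response genes on the 4 arrays, grouped by role; each point is 1 array, the grey line spans the 4, and the dashed line marks the floor of 64. Ero1l spans from 47.8 to 863, while 16 of the 38 genes stay within a 1.5-fold range.

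Set against the whole array, the hypoxia comparison in media was the one in which most ER genes were 2-fold apart. Of the 19 genes above the floor, 4 were at least 2-fold lower in hypoxia (Hyou1, Pdia6, Hspa5 and Sdf2l1), where 6.78% of all 2714 genes were, and 1, Ero1l, was at least 2-fold higher, where 5.34% of all were. Hyou1 and Sdf2l1 are the pair that passed the floor on the normoxia media array alone, and with the floor on the mean log2 value the lower genes were 2. The median difference was -0.32 over the 19, against -0.10 over all genes above the floor. Over all 38 it was -0.20, against 0.02 over all named genes without a floor. The 6 chaperones above the floor had a median of -1.07, which was -1.04 after cyclic loess scaling.

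With poly I:C in both cultures, hypoxia left 2 of the 19 at least 2-fold higher, Ero1l and P4hb, against 3.98% of all genes, and 0 at least 2-fold lower, against 3.68%. The median over the 19 was -0.03 against -0.05 over all genes, with a sign that turned to 0.01 after cyclic loess scaling. The chaperone median was -0.07.

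Poly I:C in normoxia left 1 of the 19 at least 2-fold higher (Ero1l), against 14.8% of all genes, and 2 at least 2-fold lower (Herpud1 and Hsp90b1), against 7.15%. Hsp90b1, at -1.02, was within 2-fold after centring on the median gene or cyclic loess. The median was -0.58 over the 19, against -0.03 over all genes above the floor. Over all 38 it was -0.19, against 0.02 over all named genes without a floor. The median over the 19 was the value most open to scaling: cyclic loess moved it to -0.35 and that of all genes above the floor to 0.15. With the floor applied again to the scaled values, where Derl1 replaced Hyou1, the median of the ER genes turned to 0.0041. The untreated array was the highest of the 4 in 10 of the 19 genes, and in 31.2% of all genes above the floor.

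In hypoxia, poly I:C left 2 of the 19 at least 2-fold higher (Dnajb11 and Hspa5), against 16.5% of all genes, and 1 at least 2-fold lower (Herpud1), against 9.62%. The median was -0.02 against -0.06 over all genes, and 0.15 against 0.12 after cyclic loess. Dnajb11 passed the floor on the poly I:C arrays alone and Herpud1 on the media arrays alone, and with the floor at log2 7 the counts were 1 and 0. The chaperones had a median of 0.45.

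Hypoxia was then compared with itself across the settings. The difference of differences, which is the hypoxia difference with poly I:C minus that in media and equally the poly I:C difference in hypoxia minus that in normoxia, was above 0 in 15 of the 19 genes and in 26 of the 38, against 51.4% of all genes above the floor. It was at least 1 in 3 of the 19, namely Sdf2l1 (1.5), Hsp90b1 (1.18) and Hspa5 (1.02), against 5.90% of all genes, and at most -1 in 1, Ero1l (-1.55), against 2.91%. Sdf2l1 passed the floor on the normoxia media array alone, which enters this value with a positive sign, so part of its value follows from the floor. The median over the 19 was 0.35, against 0.02 over all genes above the floor. Over all 38 it was 0.15, against -0.02 over all named genes without a floor. The chaperone median was 1.00 over the 6 above the floor and 0.78 over all 9. All 4 arrays enter this value, among them the normoxia media array, on which 10 of the 19 genes were highest, and the hypoxia media array, on which 7 of the 19 were lowest (28.8% of all genes); the part of either array in the result was not tested.

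**Figure D4:**
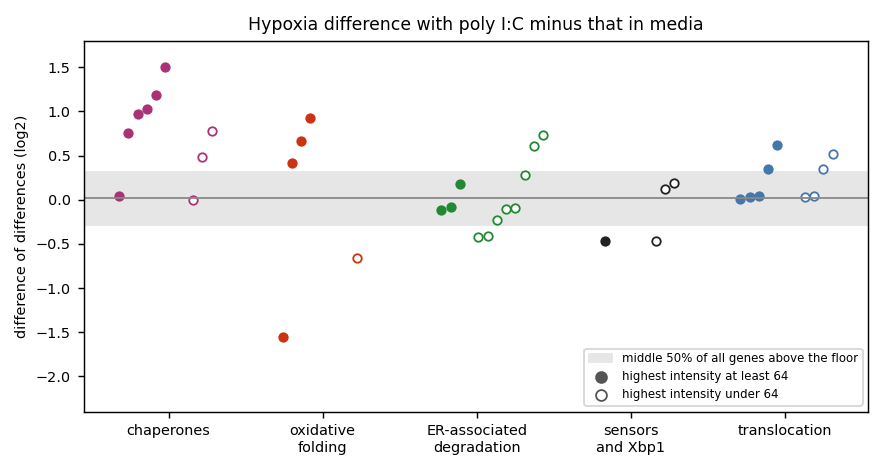
Difference of differences (log2; hypoxia difference with poly I:C minus that in media) for the 38 genes by role, filled where the highest intensity is at least 64; the grey line is the median and the band the middle 50% of all 2714 genes above the floor. The chaperones reach up to 1.5 and Ero1l lies at -1.55.

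Genes with and without an ER stress element in the window were set side by side. The 10 genes with either form, whose sequences are printed above, had a median hypoxia difference in media of -0.62, with 8 of the 10 below 0, and the 6 of them above the floor had a median of -0.81. The 22 genes with a window and neither form had a median of -0.06, with 12 of 22 below 0, where the median over all named genes without a floor was 0.02. Their 10 above the floor had a median of 0.03, with 5 of the 10 below 0, against 58.4% of all genes above the floor. With poly I:C the corresponding medians over all genes of each group were -0.17 and 0.16. Sdf2l1, at -1.22, is in the group without a match, Hyou1 and Manf have no window in the table, and Derl3 and Ero1lb have an ERSE and positive differences of 0.76 and 0.17 at intensities under the floor. The group with an element is made up mostly of chaperones and oxidative folding genes, so role and motif cannot be told apart, and no match says only that these letters are not in this window.

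**Figure D5:**
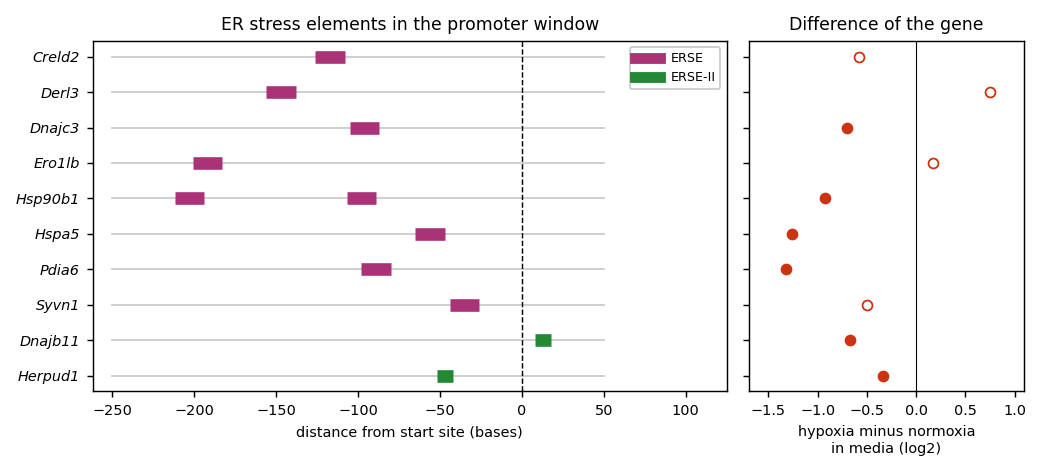
Left: position of each ERSE (purple) and ERSE-II (green) match in the 300-base promoter window of 10 ER genes, in bases from the start site (dashed line). Right: log2 hypoxia minus normoxia difference in media of the same gene, filled where its highest intensity is at least 64; all 6 filled points lie below 0, and Derl3 and Ero1lb lie above 0.

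Wider lists of the pathway placed these genes among their neighbours. Of 22 other ER chaperones and oxidoreductases, 10 were above the floor. For hypoxia in media 0 of them were 2-fold apart, where 5.34% of all genes were higher and 6.78% lower, so little is read from this count. Of the 10, 7 lay below 0 (median -0.38), where 58.4% of all genes did. Over the whole list 13 of 22 lay below 0, with a median of -0.06, which turned to 0.04 after centring on the median gene. Calr, the lectin chaperone calreticulin, had 563 untreated, 417 with poly I:C, 312 under hypoxia and 366 with both. Pdia3, its disulfide isomerase partner, had 493, 341, 263 and 367 in the same order, and a difference of differences of 1.02. Uggt1, the folding sensor that sends glycoproteins back to calreticulin, was 2-fold lower with poly I:C in normoxia (-1.37), and Prdx4, the ER peroxiredoxin that consumes the peroxide made by Ero1 enzymes, differed by 1.17 between the hypoxia arrays, at 51.8 and 117. Uggt1 passed the floor on the untreated array alone and Prdx4 on the array with both treatments alone, so part of either difference follows from the floor.

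In the PERK and ATF4 arm, 9 of 10 genes lay above 0 for poly I:C in normoxia and 7 of 10 in hypoxia, 6 of the 10 under the floor, while 48.2% and 47.4% of all genes above the floor did. Of the 4 above the floor, 2 were at least 2-fold higher with poly I:C in normoxia, against 14.8% of all genes, but both reached the floor on poly I:C arrays alone, so nothing is read from their count. They were Atf4 itself, at 30.3 untreated and 65.8 with poly I:C (1.12), and Nupr1, a small stress-induced chromatin protein, at 13.5 and 36.7 (1.44). In hypoxia, Nupr1 had 9.84 with media and 93.1 with poly I:C (3.24) and Atf4 had 41.8 and 65.7 (0.65). Ddit3, encoding CHOP, was under the floor at 7.95 untreated, 27.1 with poly I:C, 9.51 under hypoxia and 35.8 with both, and Trib3, a pseudokinase target of CHOP and ATF4, at 5.96, 14.1, 15.3 and 55.6. Eif2s1, the translation factor that PERK phosphorylates, was lower in each condition than untreated, down to 68.7 with both treatments.

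Of 10 oligosaccharyltransferase genes, which attach N-glycans to entering proteins, 7 were above the floor, and all 7 lay below 0 for poly I:C in normoxia (median -0.55), where 51.8% of all genes did, and 5 of the 7 after cyclic loess. Rpn1, a subunit of this complex, was 2-fold lower in hypoxia with media (-1.16), with 119 untreated, 61.5 with poly I:C, 53.2 under hypoxia and 32.7 with both. It passed the floor on the untreated array alone, so part of this difference follows from the floor. Among 8 signal recognition and signal peptidase genes above the floor, of 13 on the array, Spcs3, a signal peptidase subunit, was 2-fold lower with poly I:C in normoxia (-1.05) and Srp72, a signal recognition particle protein, in hypoxia (-1.12). Srp72 passed the floor on the media arrays alone, so part of its difference follows from the floor. The ER to Golgi transport genes (6 of 13 above the floor), other degradation genes (4 of 15) and other stress transducers (2 of 8) had 0 genes above the floor 2-fold apart in any of the 4 hypoxia and poly I:C comparisons. Of all genes above the floor, 3.68% to 16.5% were in each direction of these comparisons, so little is read from these counts.

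The arrays were checked against markers of the cells. Dendritic cell markers reached the floor in 6 of 8 genes, with a summed intensity of 3241 to 4556, while Flt3 and Zbtb46 did not exceed 3.83 and 6.21. The 6 did not move together. Itgax had 615 untreated, 425 in hypoxia and 328 with poly I:C. In the same order Cd74 had 1000, 1101 and 772, H2-Aa 902, 1395 and 1009, and H2-Ab1 631, 1037 and 818. Cd86 had 24.0, 23.6 and 236 on these arrays, and Ccr7 59.9, 39.7 and 223. With both treatments Itgax had 268, Cd74 1128, H2-Aa 1345, H2-Ab1 1402, Cd86 312 and Ccr7 93.2. Macrophage markers reached the floor in 6 of 6, with sums of 4377 to 5588, and they did not move together either. Mrc1 went from 131 untreated to 50.1 in hypoxia and 11.5 with poly I:C, Marco from 82.3 to 19.4 and 24.5, and Adgre1 from 174 to 90.9 and 96.8. Csf1r had 880.5, 948 and 448 on the same arrays, Lyz2 3543, 3306 and 2856, and Cd68 777, 971 and 940.3. With both treatments Mrc1 had 4.81, Marco 23.1, Adgre1 50.5, Csf1r 554, Lyz2 3062 and Cd68 981. Marco had a difference of differences of 2.00, and the other macrophage markers lay between -0.26 and 0.20. Marco and Mrc1 passed the floor on the untreated array alone. Of the plasma and B cell markers, whose cells are rich in ER, 1 of 6 reached the floor. This was Sdc1, which had 55.0 and 57.6 in normoxia and 123 and 98.7 in hypoxia. The defining genes Jchain, Mzb1, Cd79a and Ms4a1 did not exceed 3.41, and Prdm1 lay between 13.2 and 19.5. None of the 6 neutrophil, 4 mast cell and basophil, 3 T and NK cell or 4 stromal markers reached the floor, with sums of at most 24.7, 9.54, 11.3 and 21.7. Of 3 plasmacytoid dendritic cell markers Bst2, which interferon also induces, had 36.7 and 28 in media and 550.1 and 611 with poly I:C. Siglech did not exceed 3.36, and Tcf4 lay between 14.6 untreated and 29.2 with both treatments. The interferon-induced genes Rsad2, Irf7, Ifit1 and Isg15 were higher with poly I:C by 4.24 to 6.57 in normoxia and by 4.80 to 7.09 in hypoxia. In bulk RNA fewer cells of a type and less RNA per cell cannot be told apart, and the part of the dendritic cell or macrophage markers in the ER gene differences was not tested.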

How the data were processed

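The deposited intensity values are the authors' RMA output from Affymetrix Expression Console, per the submitters' processing notes, 1 array per condition; tool versions and annotation release are not stated there. The values proved to be on a linear scale, and the text table and the series matrix table differed in 0 values. A further 4 columns of the text table, which hold Z-scores, were not used. Probe sets (28998) were named through their accessions (18698) or through current (2288) or older (1732) symbols in RefSeq's gene table, or kept the file's symbol (2209); 160 with several genes and 3911 with none were left out. The probe set with the highest mean stood for a gene. Of the 38 genes, Manf, Vimp and Dnajc3 appear in the file as Armet, H47 and Dnajc3a.

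Log2 differences were taken between arrays (Python 3.11.15, pandas 2.3.3), a call being a 2-fold difference among genes whose highest intensity was at least 64. No tests were run, since each condition has 1 array. The text names members 2-fold apart above the floor, the sensors, and the rest by role. The counting steps were tested on simulated data. Cyclic loess came from limma 3.58.1 in R 4.3.3; other floors, thresholds, a pseudocount, centring and probe set averaging were also tried. Promoters are RefSeq's for GRCm38.p6. Members and lists were chosen with earlier results of these data known. The label protocol also mentions nascent RNA, while all 4 samples are labelled total RNA. One marker gene is not reported here.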

Additional observations from a re-analysis of the deposited data

Results flagged for a closer look

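In 3 ER folding genes a treatment went one way in one setting and the other way in the other with at least 1 log2 unit between them; other genes changed sign by less (of the 19 above the floor, 5 were below 0 for hypoxia in media and above 0 with poly I:C, and 2 the reverse), and with 1 array per condition none of these differences was tested. Hsp90b1 had a hypoxia difference of -0.93 in media and 0.26 with poly I:C, and a poly I:C difference of -1.02 in normoxia and 0.16 in hypoxia, a difference of 1.18 in either reading. Sdf2l1 had a hypoxia difference of -1.22 in media and 0.28 with poly I:C, and a poly I:C difference of -0.77 in normoxia and 0.74 in hypoxia, which differ by 1.5. Sdf2l1 reached the floor on the normoxia media array alone. Ero1l had a poly I:C difference of 1.48 in normoxia and -0.07 in hypoxia, a difference of -1.55, and the second of these changed sign after cyclic loess scaling (0.12).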

How the results depend on the processing

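No paired analysis was possible because each condition has 1 array and no result comes from a test. With the floor at log2 7, the median hypoxia difference in media was -0.70, the genes at least 2-fold lower were 2 there, 1 for poly I:C in normoxia and 0 for poly I:C in hypoxia, and those higher for poly I:C in hypoxia were 1. With the floor on a mean log2 value of 6, the lower genes were 2, 1 and 0 in those comparisons, and the median for poly I:C in normoxia was -0.19, as it was without a floor. Cyclic loess and centring on the median gene each left 1 gene lower for poly I:C in normoxia. Cyclic loess with the floor applied again, an alternative chosen after seeing the data, also left 1, with a median of 0.0041 in place of -0.58; Derl1 entered (65.9) and Hyou1 left (62.3). A pseudocount of 16 left 2, 0 and 0 lower genes for hypoxia in media, poly I:C in normoxia and poly I:C in hypoxia, and 1 higher in the last. At 1.5-fold, 2 genes were higher and 8 lower for hypoxia in media, 1 was lower for hypoxia with poly I:C, 8 were lower for poly I:C in normoxia, 2 for poly I:C in hypoxia, and 8 had a positive difference of differences. At 3-fold, 0 were lower for hypoxia in media, 1 was higher for hypoxia with poly I:C, 0 were higher or lower for either poly I:C comparison, and 0 passed in either direction for the difference of differences. Of 280 recomputed values of 14 named genes, 271 moved by less than the robust spread of the array differences (0.32), 9 moved by more, all under the pseudocount, and 0 called values changed sign. Probe set averaging could not move any of these values, because each of the 14 genes has 1 probe set. Centring could not move one beyond the spread either, because it shifts all genes alike by at most 0.10. The count of 271 therefore bears on cyclic loess and the pseudocount only.

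Over all genes, the counts higher and lower ranged over the alternatives from 67 to 324 and 58 to 494 for hypoxia in media (145 and 184 as reported), from 31 to 276 and 20 to 342 for hypoxia with poly I:C (108 and 100), from 224 to 642 and 50 to 636 for poly I:C in normoxia (402 and 194), from 240 to 769 and 81 to 671 for poly I:C in hypoxia (447 and 261), and from 49 to 478 and 18 to 285 for the difference of differences (160 and 79). Cyclic loess moved the share of poly I:C calls that were higher from 67.4% to 77.5% in normoxia and from 63.1% to 73.2% in hypoxia. With 1 array per condition, the spread between cultures is unknown, and low intensities limit the 19 genes under the floor.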
